A study of Mus musculus with 6 samples.

Results

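A set of 10 genes of prohormone processing and of the granin family was followed in pancreatic islet cells that had been cultured with exosomes from T lymphocytes. They are Pcsk1, Pcsk2, Cpe, Pcsk1n, Chga, Chgb, Scg2, Scg3, Scg5 and Vgf, chosen by name through the RefSeq accession of each array probe. All 10 of 10 were well above background on all 6 arrays, among 25790 genes tested. Where a gene had several probes, the probe with the highest mean signal stood for it. The exoNOD group held 3 arrays of dispersed islet cells of male C57Bl/6N mice, cultured for 72 h with 50 µg/ml of exosomes. The exosomes had been released by CD4+CD25- T lymphocytes from NOD animals, which are prone to autoimmune diabetes. The control group held 3 arrays of the same kind of cells, cultured for the same time without exosomes. Each of the 3 experiments had its own islet and exosome preparations, and the age of the mice was not used here. The RNA came from all cells of the dispersed islets, so fewer cells of a type and less RNA per cell cannot be told apart in any value that follows.

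Peptide hormones are made as larger precursors that are packed into dense core granules and cut there. The convertases encoded by Pcsk1 and Pcsk2 cut after pairs of basic residues, and carboxypeptidase E, encoded by Cpe, trims the basic residues that remain. In beta cells these enzymes turn proinsulin into insulin, and in alpha cells the Pcsk2 product releases glucagon from proglucagon. Pcsk1n encodes proSAAS, an inhibitor of the Pcsk1 product, and Scg5 encodes a protein that helps the Pcsk2 product to mature and can inhibit it. The granins Chga, Chgb, Scg2, Scg3 and Vgf are acidic granule proteins that take part in granule formation and are themselves cut into peptides. Peptides from chromogranin A, the Chga product, are recognised by diabetes-causing T lymphocytes of NOD mice.

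The promoter windows of the RefSeq table (build GRCm38.p6) cover 250 bases before to 50 bases after the annotated start, and 8 of the 10 genes had one. Cpe and Vgf had no window, so their promoters were not searched. They are shown for Pcsk1n, the gene among the 10 that passed with the replicate block described below, and for the 4 genes whose window holds a cAMP response element, a site through which cAMP signals are known to act on granin genes. The search used TGACGTNA for this element and GGGCGG for the GC box, each on both strands, and in these 5 windows the matches do not overlap. Capitals mark both motifs. The element was in 2.93% of all 32851 windows and the GC box in 35.7%. A match describes letters and shows no binding.
Pcsk1n, chrX:7919572-7919871, plus strand: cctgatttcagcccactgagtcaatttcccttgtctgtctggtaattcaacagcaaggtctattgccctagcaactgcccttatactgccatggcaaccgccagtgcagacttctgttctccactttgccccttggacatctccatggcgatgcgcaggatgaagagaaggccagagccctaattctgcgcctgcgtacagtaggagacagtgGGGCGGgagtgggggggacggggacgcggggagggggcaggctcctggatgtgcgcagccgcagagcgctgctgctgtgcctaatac
Chga, chr12:102554691-102554990, plus strand: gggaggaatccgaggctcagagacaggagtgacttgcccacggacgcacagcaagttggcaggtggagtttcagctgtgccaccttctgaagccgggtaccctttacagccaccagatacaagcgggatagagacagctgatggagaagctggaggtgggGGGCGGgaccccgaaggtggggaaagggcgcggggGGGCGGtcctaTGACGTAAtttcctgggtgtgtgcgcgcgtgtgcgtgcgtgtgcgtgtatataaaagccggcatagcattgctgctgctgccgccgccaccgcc
Chgb, chr2:132781392-132781691, plus strand: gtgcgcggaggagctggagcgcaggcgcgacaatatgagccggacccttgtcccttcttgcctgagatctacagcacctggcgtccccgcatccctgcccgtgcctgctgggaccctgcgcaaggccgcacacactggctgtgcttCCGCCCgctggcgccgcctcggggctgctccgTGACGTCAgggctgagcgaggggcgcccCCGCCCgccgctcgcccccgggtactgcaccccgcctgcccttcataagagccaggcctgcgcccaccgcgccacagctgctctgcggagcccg
Scg2, chr1:79439977-79440276, minus strand: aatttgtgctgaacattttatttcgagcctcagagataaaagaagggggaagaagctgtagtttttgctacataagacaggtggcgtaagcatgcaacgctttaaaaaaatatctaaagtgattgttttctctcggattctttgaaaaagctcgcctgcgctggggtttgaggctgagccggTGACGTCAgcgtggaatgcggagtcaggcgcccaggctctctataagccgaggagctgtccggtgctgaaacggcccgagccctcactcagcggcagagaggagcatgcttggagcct
Pcsk1, chr13:75089607-75089906, plus strand: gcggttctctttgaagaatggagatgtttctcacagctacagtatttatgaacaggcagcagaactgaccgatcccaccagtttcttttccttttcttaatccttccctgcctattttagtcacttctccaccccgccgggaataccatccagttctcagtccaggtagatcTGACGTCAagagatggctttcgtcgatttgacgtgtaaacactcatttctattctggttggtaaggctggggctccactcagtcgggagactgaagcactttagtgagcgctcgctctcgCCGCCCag
The element begins 44 bases before the start in Chga, 72 in Chgb, 68 in Scg2 and 78 in Pcsk1. Its letters are TGACGTAA in Chga and TGACGTCA in the other 3. The Pcsk1n window holds a GC box 37 bases before the start and no match to the element. None of the 4 genes that carry the element passed without or with the block, with changes of −0.18 for Chga, 0.10 for Chgb, −0.17 for Scg2 and −0.073 for Pcsk1.

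A level is the log2 signal of a probe less the log2 of its array's 75th percentile, and a change is the mean exoNOD level minus the mean control level. All arrays had 43020 spots for transcripts, of which between 78.1% and 81.8% were well above background and 0 were saturated. In limma 27 of 25790 genes passed an adjusted p of 0.05, or 0.105%, with 26 (0.101%) higher and 1 (0.00388%) lower in exoNOD cells. This split was 22 and 17 with quantile-normalized signals, 18 and 13 in the authors' values, 12 and 1 after scaling to the median and 121 and 41 with normexp background correction. With the replicate number as a block, which treats exoNOD and control arrays of equal number as pairs, 2249 genes (8.72%) passed, of which 472 (1.83%) were lower and 1777 (6.89%) were higher in exoNOD cells. The labels do not state this pairing, which was taken from how arrays of equal number deviate together. As inferred from scan times, exoNOD replicate 1 and the 3 controls shared a slide (slide 1), and exoNOD replicates 2 and 3 lay on another slide without controls. In the sentences that follow, the 3 values of a group are replicates 1, 2 and 3.

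Of the 10 genes, 0 passed in limma without the block, and 1, Pcsk1n, passed with it. Without the block 1 of the 10 had an unadjusted p under 0.05 in limma, as had 4293 of all 25790 genes. Pcsk1n was lower in exoNOD cells, with 1.40-fold more signal in control cells. Its groups did not overlap on the arrays, which held for 1 of the 10 genes in this direction and for 7.78% of all genes. In the other direction it held for 0 of the 10 and for 14.6% of all genes. Among the 1785 genes at least as bright as the dimmest of the 10, 2.35% were lower with the block. The intervals of the other 9 genes lay across 0 without the block. The median change of the 10 genes was −0.16, against 0.035 over all genes tested and −0.035 over the 1785 bright ones, of which 60.7% lay below 0.

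**Figure D1:**
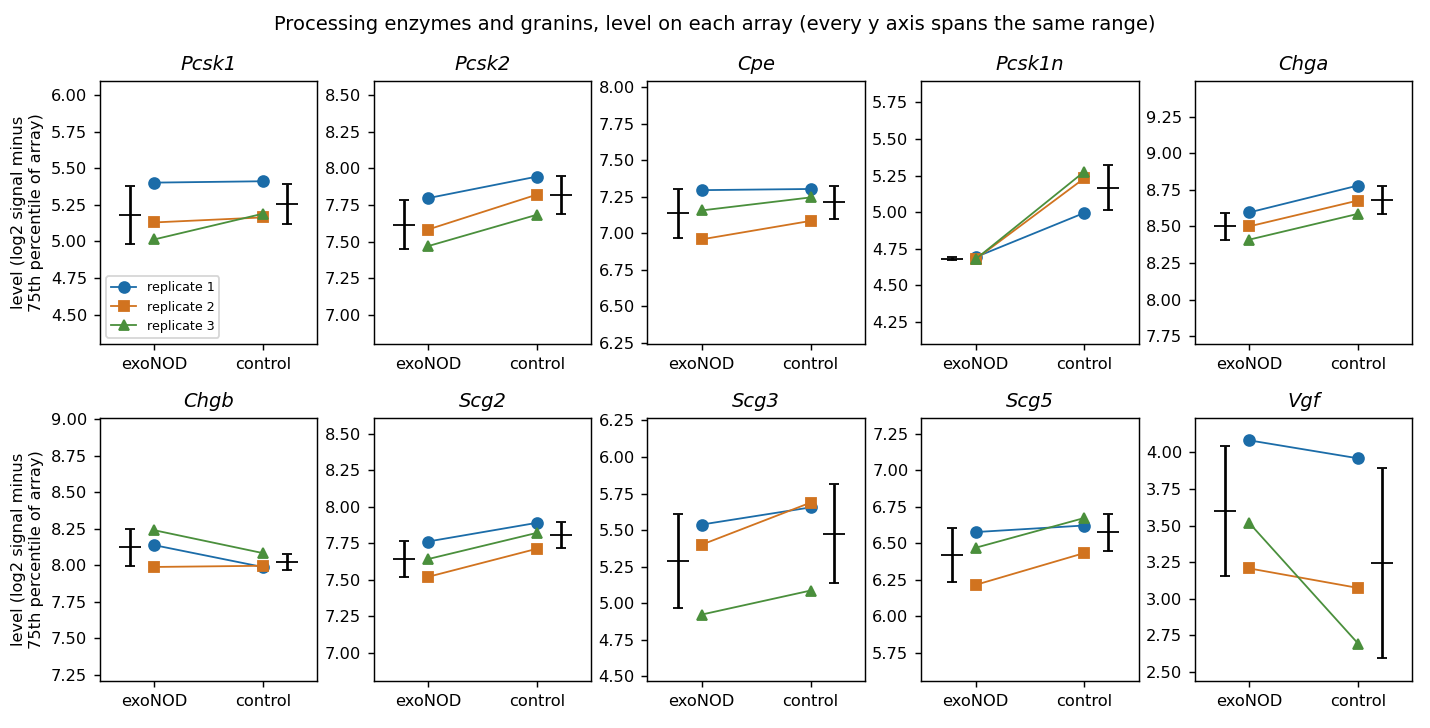
Level of each gene on each array (log2 signal minus the 75th percentile of the array), exoNOD on the left and control on the right of each panel. Lines join arrays of equal replicate number, and black bars give mean ± SD (n = 3); only the Pcsk1n groups do not overlap, and Vgf has the widest spread.

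Among the inhibitors, Pcsk1n had levels of 4.69, 4.68 and 4.68 in exoNOD cells, against 4.99, 5.23 and 5.28 in control cells. The exoNOD arrays lay almost at one value (4.68 ± 0.01, SD, n = 3), and the control arrays were spread more widely (5.17 ± 0.15, SD, n = 3). The lowest control, replicate 1, was above every exoNOD array. The log2 change was −0.49 ± 0.10 (SE; 95% confidence interval −0.72 to −0.25), with an adjusted p of 0.0932 in limma without the block and 0.0159 with it. Its unadjusted p ranked 305th of 25790 genes without the block and 894th with it. On slide 1, the difference between exoNOD replicate 1 and the mean of the 3 controls was −0.48, close to that over all arrays. This difference rests on 1 exoNOD array. Differences within pairs 1, 2 and 3 were −0.30, −0.55 and −0.60, and only pair 1 lay wholly on slide 1. With the block, the call was lost without pair 2 (adjusted p = 0.0783) and without pair 3 (0.137).

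Scg5, which encodes the partner of the Pcsk2 product, had 6.58, 6.21 and 6.47 in exoNOD cells and 6.62, 6.43 and 6.67 in control cells. Replicate 2 was the lowest array in both groups, and the groups overlapped. The change was −0.16 ± 0.12 (interval −0.43 to 0.12, adjusted p = 0.528, 0.364 with the block).

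For the convertases themselves, Pcsk2 had 7.80, 7.58 and 7.47 in exoNOD cells and 7.94, 7.82 and 7.68 in control cells. Replicate 1 was the highest and replicate 3 the lowest array in both groups, so the groups overlapped while each exoNOD array lay below the control of its number. The change was −0.20 ± 0.12 (interval −0.47 to 0.071, adjusted p = 0.417, 0.304 with the block). Pcsk2 passed with the block in 2 further fits, one on quantile-normalized signals (−0.23, adjusted p = 0.0397) and one on the authors' values (−0.23, 0.0416). These 2 fits had nearly equal changes for each gene of the set, so they do not count as separate results. A second Pcsk2 probe had a change of −0.29 ± 0.20 (adjusted p = 0.466, 0.0509 with the block).

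Pcsk1 had 5.40, 5.13 and 5.01 in exoNOD cells and 5.41, 5.16 and 5.19 in control cells. The values overlapped almost entirely, with replicate 1 the highest array of each group. Its change was −0.073 ± 0.13 (interval −0.36 to 0.21, adjusted p = 0.789, 0.638 with the block).

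Cpe, the carboxypeptidase gene, had 7.30, 6.96 and 7.16 in exoNOD cells and 7.30, 7.09 and 7.25 in control cells. Replicate 2 was again the lowest array of each group, as it was for Scg5. The change was −0.074 ± 0.12 (interval −0.34 to 0.19, adjusted p = 0.767, 0.697 with the block), and the other 2 Cpe probes had changes of −0.048 and −0.11 with adjusted p of 0.858 and 0.793. After quantile normalization the change was −0.21 (adjusted p = 0.356, 0.0758 with the block).

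**Figure D2:**
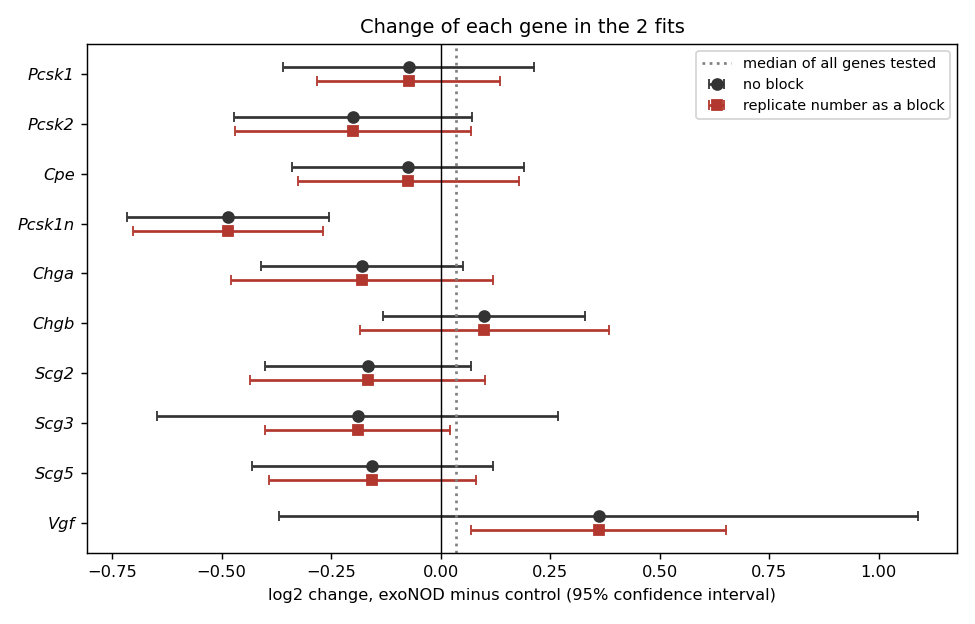
Log2 change of each gene (exoNOD minus control) with its 95% confidence interval in limma without (circles) and with (squares) the replicate number as a block; the dotted line is the median of all genes tested. The Pcsk1n intervals lie below 0 in both fits, and that of Vgf lies above 0 with the block alone (0.068 to 0.65, adjusted p = 0.112).

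Of the granins, Chga had 8.60, 8.5004 and 8.41 in exoNOD cells and 8.78, 8.68 and 8.59 in control cells. The ranges overlapped at exoNOD replicate 1 and control replicate 3 alone, and the differences within the 3 pairs were nearly equal, at −0.18 each. The change was −0.18 ± 0.10 (interval −0.41 to 0.052, adjusted p = 0.396, 0.407 with the block). Chga signals stood at 78.7% to 98.7% of the highest signal of their array. How well a change can be seen at such brightness was not tested. After quantile normalization, which gives the brightest probes of all arrays like values, the change was −0.050.

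Chgb, the related chromogranin B gene, had 8.14, 7.99 and 8.24 in exoNOD cells and 7.99, 7.997 and 8.08 in control cells. The change was 0.10 ± 0.10 (interval −0.13 to 0.33, adjusted p = 0.634, 0.640 with the block), and it was −0.041 after scaling to the median and −0.14 with normexp background correction. Scaling to the median moves all genes alike, and relative to the median of all genes Chgb was at 0.065 both there and under scaling to the 75th percentile. With normexp it was at −0.49 on that relative scale, which rests mostly on genes dimmer than the 10. The Chgb probe was printed 10 times on each array. The SD between its spots within an array lay between 0.063 and 0.090, against an SD between arrays of 0.13 in exoNOD cells and 0.053 in control cells (n = 3 each).

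Scg2, the precursor of the peptide secretoneurin, had 7.76, 7.52 and 7.64 in exoNOD cells and 7.89, 7.71 and 7.82 in control cells. The ranges overlapped by little, since exoNOD replicate 1 lay above control replicate 2 alone. The change was −0.17 ± 0.10 (interval −0.40 to 0.069, adjusted p = 0.437, 0.391 with the block).

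Scg3, whose product binds chromogranin A at the granule membrane, had 5.54, 5.40 and 4.92 in exoNOD cells and 5.66, 5.69 and 5.09 in control cells. Replicate 3 was low in both groups by about as much, and this spread was greater than the group difference. The change was −0.19 ± 0.20 (interval −0.65 to 0.27, adjusted p = 0.650), and with the block the standard error was 0.095 (adjusted p = 0.221).

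Vgf, a granin gene known to be induced by neurotrophins in neurons, was the most variable of the 10. It had 4.08, 3.21 and 3.52 in exoNOD cells and 3.96, 3.07 and 2.69 in control cells. Each exoNOD array lay above the control of its number, by 0.12, 0.13 and 0.82, so most of the difference came from pair 3. The change was 0.36 ± 0.32 (interval −0.37 to 1.09, adjusted p = 0.584, 0.112 with the block). With the block and without pair 1 it passed (0.48, adjusted p = 0.00241). Without the block the change was 0.086 without control replicate 3, 0.12 without exoNOD replicate 1 and 0.72 without control replicate 1.

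Within pairs of equal replicate number, 8 of the 10 genes were lower in exoNOD cells in all 3 pairs, as were 22.1% of all genes. Among the 1785 bright genes the share was 21.9%. Vgf was higher in all 3 pairs, as were 29% of all genes and 16% of the 1785 bright ones. The 8 genes have Chgb and Vgf as exceptions, share their arrays and were chosen with earlier results known, so their count was not tested. Both arrays of pair 1 lay on slide 1, and there the 8 genes were lower too, by little in Pcsk1 (−0.0094), Cpe (−0.0080) and Scg5 (−0.045). Replicate 1 had the highest mean level of the 10 genes in each group (0.12 in exoNOD and 0.18 in control cells, each gene less its own mean). A comparison with the mean of the 3 controls on slide 1 sets this pairing aside. In it, 4 of the 10 genes had a lower level on exoNOD replicate 1 than that mean. These were Pcsk1n (−0.48), Chga (−0.085), Scg2 (−0.046) and Pcsk2 (−0.019). Pcsk1 (0.15), Cpe (0.084) and Scg3 (0.061) had positive differences in this comparison, as did Chgb (0.12) and Vgf (0.84), and Scg5 lay near 0. The median over the 10 genes in this comparison was 0.031, near the 0.017 of all genes. Over all arrays it was −0.16, against 0.035 for all genes. The comparison on slide 1 rests on 1 exoNOD array.

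**Figure D3:**
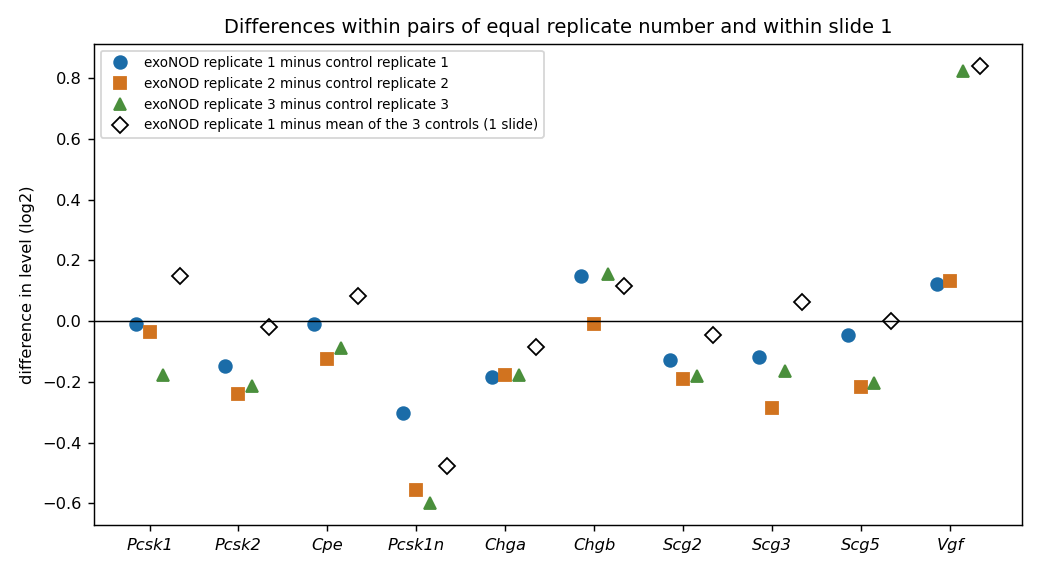
Difference in level (log2) between exoNOD and control arrays of equal replicate number (filled symbols) and between exoNOD replicate 1 and the mean of the 3 controls on its slide (open diamonds). In 8 genes all filled symbols lie below 0, those of pair 1 on slide 1 included, whereas the diamonds lie clearly below 0 in Pcsk1n alone (−0.48).

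Relative to the median change of all genes, the 10 genes had a median of −0.20 under scaling to the 75th percentile, −0.16 both with quantile-normalized signals and with the authors' values, and −0.20 under scaling to the median. The scaling to the median moved the median of all genes to −0.11, and normexp background correction moved it to 0.35. Relative to that shift the 10 genes had a median of −0.73 with normexp, and all 10 lay below 0, Vgf at −0.21 included. The median of all genes rests mostly on genes dimmer than the 10. That of the 1785 bright genes was not computed with normexp, so these values do not set the 10 apart from other bright genes. Pcsk1n lay lowest of the 10 in each of these settings, between −1.03 and −0.46.

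**Figure D4:**
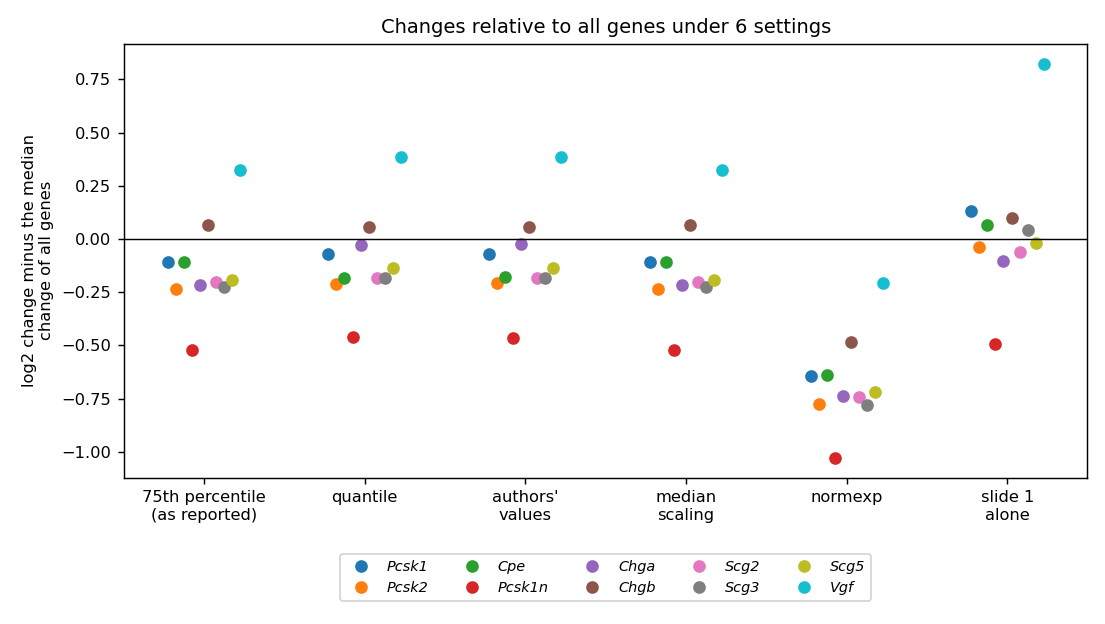
Log2 change of each gene minus the median change of all genes under 6 settings (scaling, background correction, the authors' values and slide 1 alone). Pcsk1n is the lowest point in each setting, and on slide 1 Vgf lies far above the others (0.82).

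The other genes of the pathway were taken from 4 lists. Their counts at an unadjusted p under 0.05 in limma without the block stand beside 4293 of all 25790 genes. Among other prohormone processing enzymes, 13 of 14 were tested, 0 passed in limma without the block (1 had an unadjusted p under 0.05), and 2 were lower and 0 higher with it (list median −0.021). Pcsk4, a convertase known chiefly from germ cells, had 0.26, 0.29 and −0.069 in exoNOD cells and 0.71, 0.74 and 0.77 in control cells, so its groups did not overlap. Its change was −0.58 ± 0.12 (adjusted p = 0.0944, 0.00789 with the block). Ero1b, which supplies oxidising power for disulfide bonds of proinsulin, changed by −0.51 ± 0.35 (adjusted p = 0.475, 0.0198 with the block). Furin, the convertase of the trans-Golgi network, had a change of −0.084 (adjusted p = 0.746, 0.559 with the block). The carboxypeptidase gene Cpd had a change of −0.19 (0.528, 0.214) and Pam, which amidates peptide ends, one of 0.24 (0.385, 0.165).

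All 18 genes of the granule membrane and of granule formation were tested, and their median change was −0.10. In limma 0 passed without the block (1 had an unadjusted p under 0.05), and with the block 1 was lower and 0 were higher. That gene was Slc30a8, the zinc transporter of the insulin granule, with 4.24, 3.998 and 3.56 in exoNOD cells and 4.68, 4.42 and 4.04 in control cells (change −0.45 ± 0.20, adjusted p = 0.309, 0.0114 with the block). Hid1, which takes part in granule formation, had a change of −0.25 (0.294, 0.0926 with the block). Ptprn, a granule membrane protein and islet autoantigen, had a change of −0.093 (0.699, 0.525), and its relative Ptprn2 one of −0.00072 (0.998, 0.997).

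Of the precursors that these enzymes cut, 17 of 18 were tested, with a median change of −0.069. In limma 0 passed without the block (5 had an unadjusted p under 0.05), and 1 was higher and 2 were lower with the block. Cck, the cholecystokinin precursor, had −1.26, −0.45 and −0.62 in exoNOD cells and −2.33, −2.58 and −2.04 in control cells. This change of 1.54 ± 0.23 had an adjusted p of 0.0601 without and 0.00147 with the block. Ucn3, a peptide of mature beta cells, changed by −0.73 ± 0.29 (0.275, 0.00196 with the block), and the peptide YY gene Pyy by −0.40 ± 0.14 (0.244, 0.0445). The main islet hormones did not pass in either fit. Ins1 had a change of −0.12 (0.498, 0.568 with the block), Ins2 of −0.069 (0.712, 0.770) and Gcg of −0.10 (0.578, 0.657). Mean control levels were 8.44 for Ins1, 8.70 for Ins2 and 8.68 for Gcg, against 8.68 for Chga. How well a change can be seen at such brightness was not tested for these hormones either. Sst had a change of −0.21 (0.460, 0.231), Ppy of −0.35 (0.280, 0.0725) and Iapp of −0.014 (0.949, 0.955).

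Of 12 transcription factors of the neuroendocrine programme, all tested, 0 passed in limma without the block (2 had an unadjusted p under 0.05), and 3 were lower and 0 higher with it (list median −0.052). The 3 were the beta cell factors Mafa (−0.30, adjusted p = 0.248, 0.0431 with the block), Nkx2-2 (−0.32, 0.411, 0.0436) and Pdx1 (−0.37, 0.383, 0.0409). Rfx6, an islet factor, had a change of −0.22 (0.295, 0.112). Rest, the repressor of neuronal and granin genes outside neuroendocrine cells, had a change of 0.54 ± 0.24 (0.303, 0.110). Insm1 and Neurod1, which are needed to form endocrine cells, had changes of 0.011 (0.966, 0.946) and 0.040 (0.853, 0.772).

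**Figure D5:**
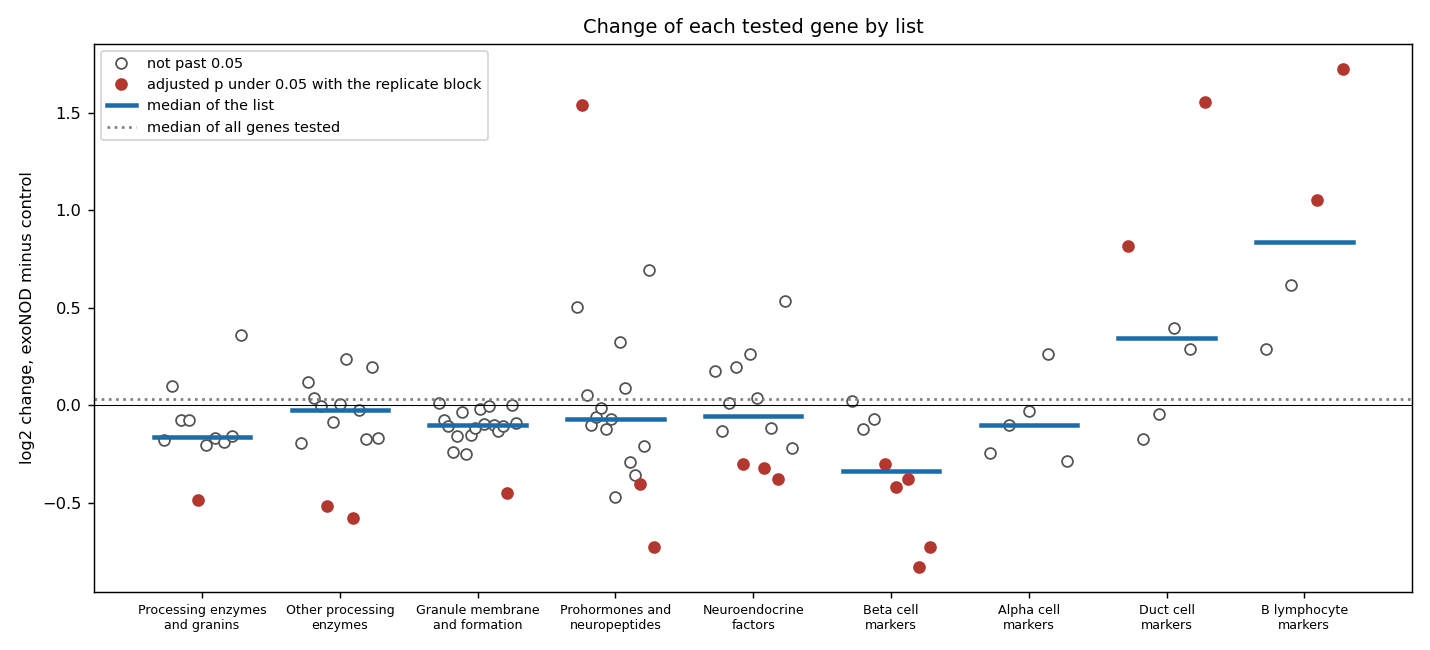
Log2 change (exoNOD minus control) of each tested gene by list, with the list median (blue bar) and the median of all genes (dotted line, 0.035); filled points had an adjusted p under 0.05 with the replicate block. Medians of the 10 genes (−0.16) and of beta cell markers (−0.34) lie below the line, and those of duct cell (0.34) and B lymphocyte markers (0.84) lie above it.

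Markers of the cell types that the preparation can hold were summed in each array. Of 8 beta cell markers, 7 had a negative change, and 5 were lower with the block. Their summed signal, in units of the 75th percentile of each array, was 759 to 764 in exoNOD cells and 795 to 834 in control cells. Ins1 and Ins2, which passed in neither fit, made up between 92.2% and 95.3% of that sum, so the 5 lower markers hardly enter it. The 5 alpha cell markers summed to 398 to 413 in exoNOD cells and 425 to 443 in control cells, with 0 passing. Duct cell markers summed to 7.12 to 9.42 in exoNOD cells and 4.61 to 6.82 in control cells, where 2 of 6 were higher with the block. B lymphocyte markers summed to 0.303 to 0.351 in exoNOD cells and 0.177 to 0.213 in control cells, with 2 of 4, Cd79b and Ms4a1, higher under the block. Ms4a1 was above background on 3 of the 6 arrays alone, so it was tested only through the group in which it was high. T lymphocyte markers (3 of 6 tested, 0 passing) summed to 13.1 to 17.5 in exoNOD cells and 13.4 to 18.3 in control cells. Most of this sum was Cd3e, with mean levels of 3.34 in exoNOD and 3.52 in control cells. Cd4 had 2.13 and 1.81, and Cd8a was dim at −4.69 and −4.91. Mast cell markers (3 of 4 tested) summed to 0.836 to 0.997 in exoNOD cells and 0.435 to 0.5004 in control cells, with Tpsb2 higher in both fits. Tpsb2 made up 78.7% to 88.7% of the sum in exoNOD cells and 61.3% to 67.6% in control cells, and Kit had a change of −0.44 (adjusted p = 0.413, 0.0823 with the block). Endothelial markers summed to 8.29 to 9.04 in exoNOD cells and 6.78 to 7.88 in control cells, with 1 higher and 2 lower of 6. In the other lists the ranges overlapped. Acinar cell markers summed to 1.84 to 2.51 in exoNOD cells and 1.73 to 1.95 in control cells, and fibroblast and stellate cell markers to 62.2 to 87.3 in exoNOD cells and 52.7 to 76.6 in control cells. Those of macrophages and dendritic cells summed to 3.13 to 4.27 in exoNOD cells and 3.14 to 4.21 in control cells, and those of Schwann cells and neurons to 7.61 to 8.91 in exoNOD cells and 8.16 to 9.96 in control cells. Delta cell markers summed to 84.4 to 107 in exoNOD cells and 94.3 to 122 in control cells, and the PP cell marker stood at 77.4 to 97.3 in exoNOD cells and 90.2 to 125 in control cells. The T lymphocyte gene Cd3g and the mast cell gene Cpa3 were above background on 0 arrays. The part of these cell types in the values of the 10 genes was not tested.

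The genes whose 6 levels ran most like the mean profile of the 10 genes, among 6514 brighter genes outside the lists, were Pkmyt1, Rad54l2, Ncapd3, Taf4 and Lrrc56. Their Pearson correlations lay between 0.992 and 0.994 over 6 arrays that share their labelling and scaling, which is a description without a test. Each of them had its highest level on control replicate 1, as did the mean profile of the 10 genes.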

How the data were processed

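Each of the 6 RNA samples was hybridised to its own Agilent mouse array in a single colour, Cy3. Per the file headers, the deposited scanner files were written by Feature Extraction (version 11.0.1.1). Per the file headers, the deposited intensity of a spot is its processed signal, which that software corrected for background within each array, with other values (flags, 0 or 1) per spot. The authors' deposited series values are on a log2 scale, and how they were normalized is not given in the sources used here.

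Here, log2 of the processed signal minus the 75th percentile of the array was averaged over spots, without control spots and spots flagged as uneven or outlying. Probes above background on all arrays of a group were kept (31063 of 39429), and the brightest probe stood for its gene (25790 genes, 17252 with a symbol). None of the 10 genes lacked an array. The comparison was made in R 4.3.3 using limma 3.58.1, with lmFit followed by eBayes (trended variance), and with Benjamini-Hochberg adjustment over all genes and a threshold of 0.05. Arrays of equal number deviated together (r of 0.366, 0.281 and 0.480 across genes, each above 0.1), and the replicate block is therefore given beside each result. Fits were tested on simulated data with set changes larger than those of the 10 genes and without a slide effect. Changes as small as those of the 10 genes were not tested in this way.

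Always named were the 10 genes, 6 islet hormone genes, Pam, Furin, Cpd, Ptprn, Ptprn2, Rest, Insm1 and Neurod1, then genes of each list past the threshold in either fit (at most 6, by size of change) and the 2 with the lowest p. The members and lists were chosen with earlier results of these data known. The number of arrays limits the precision, and the planned normexp correction used the median spot signal in place of the mean. Lists of endothelial cells, macrophages and dendritic cells, Schwann cells and neurons, mast cells, delta cells and PP cells were also summed.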

Additional observations from a re-analysis of the deposited data

How the results depend on the processing

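The count of 27 genes moved to 2249 with the replicate block, 1256 with the block and quantile normalization, 1232 with the block on the authors' values, 162 with normexp, 309 with array weights and 13 after scaling to the median. It was 0 in limma without the filter on dim probes (4638 at an unadjusted p under 0.05), with slide as a block (930), on slide 1 alone (1143, chosen after seeing the data) and without a variance trend (4357). Leaving out 1 array or pair gave between 0 and 4170: without the block it was 1271 without exoNOD replicate 1, 76 without control replicate 3, 2 without exoNOD replicate 3 and 0 without exoNOD replicate 2 or control replicate 1 or 2 (3052, 2556 and 2424 at an unadjusted p under 0.05); with the block it was 4170, 454 and 1739 without pair 1, 2 and 3. The count of members past the threshold was 0 and became 1 with the block and 2 with the block after quantile normalization or in the authors' values; it lay between 0 and 2 when an array or pair was left out. The 4 pathway lists had 0 calls, 9 with the block, 6 with the block after quantile normalization, 6 with the block in the authors' values, 2 with normexp, 2 with array weights and between 0 and 11 when an array or pair was left out. The median change of the members (−0.16) was −0.38 with normexp, −0.30 after scaling to the median and 0.031 with slide as a block or on slide 1 alone, and lay between −0.23 and −0.079 when an array or pair was left out. Chgb was at −0.14 with normexp and at −0.041 after scaling to the median, which moves all genes alike (relative to all genes Chgb stayed at 0.065). Signs turned for Pcsk1 (0.147), Cpe (0.084), Scg3 (0.061) and Scg5 (0.00065) with slide as a block or on slide 1 alone, for Pcsk1 without control replicate 1 (0.0049) or exoNOD replicate 3 (0.011) and for Cpe without exoNOD replicate 2 (0.015); without exoNOD replicate 1 these 2 genes were at −0.18 and −0.15. The cause was not tested. Pcsk1n kept its sign in all 23 alternatives and passed in 4 of them, each with the replicate block. Flagged spots kept, added after seeing the data, left the count at 27. How far brightness limits the values of Chga, Ins1, Ins2 and Gcg was not tested.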
